A study of Mus musculus with 8 samples.

Results

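Peritubular capillaries are the vessels that run between the tubules of the renal cortex and take up the water and solutes that the tubules reabsorb. Their endothelium is thin and fenestrated. It carries the VEGF receptor Kdr, by which it answers to VEGF from the neighbouring tubule cells, and the diaphragm protein Plvap, which spans its fenestrae. Cells of nearly every tissue also run a circadian clock, in which the activators Arntl (Bmal1), Clock and Npas2 drive the repressors of the Per, Cry and Nr1d families, and the Nr1d (REV-ERB) receptors act back on Arntl and Npas2. Nuclei of this endothelium were taken from a single-nucleus RNA-seq series of mouse kidney by their counts of marker genes, and their transcripts were compared between 2 times of day and between mice with and without the clock activator Arntl in the tubule.

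A nucleus was a member if it had at least 500 genes, at least 800 UMIs (counted RNA molecules) and at most 2% of UMIs on mitochondrial genes, at least 1 UMI on 2 or more of Flt1, Ptprb, Emcn and Pecam1, at least 1 on Kdr, at least 2 on Esm1, Btnl9 and Cyyr1 together, 0 on Ehd3, and at most 1 on Nlgn1, Sema3d and Igf1 together. This rule found 3814 nuclei, which are 4.69% of the 81391 nuclei that passed the quality filter and 23.6% of the 16164 nuclei with 2 or more of the first 4 genes, called endothelial nuclei from here on. That name stands for these counts alone, and whether it takes in other cells with stray UMIs on these genes was not tested. All mice were male Bmal1 lox/lox animals on the C57BL/6J background, kept under 12-hours light and 12-hours dark, and from 8 weeks of age drank doxycycline at 2 mg/ml, with sucrose, for 2 weeks. The cKOt mice also carried Pax8-rtTA and LC-1 Cre, which delete Arntl in tubule cells under doxycycline, and the Ctrl mice were littermates without these 2 transgenes. Pax8 is a gene of the renal tubule, so the deletion was aimed at the tubule and not at the endothelium of cKOt mice. Kidneys were taken at ZT4, in the light and resting phase, or at ZT16, in the dark and active phase, from 2 mice for each genotype and time. The 8 libraries held 400 and 535 members in Ctrl ZT4, 365 and 503 in cKOt ZT4, 495 and 513 in Ctrl ZT16, and 424 and 579 in cKOt ZT16 (replicate 1 first, here and below).

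The depth of a member nucleus was modest, with medians of 2258.5 UMIs and 1358 genes, and the members of 1 library summed to between 907949 and 1650991 UMIs. Scrublet, which finds nuclei that look like 2 cells in 1 droplet, marked 400 members (10.5%), against 5.37% of all nuclei that passed the filter. Between any 2 libraries 18 to 43 cell barcodes were shared. RNA of tubule cells was present in nearly every member: 13 of the 3814 had no UMI on 20 marker genes of the proximal and distal tubule, or 45 when Slc8a1 and Wnk1, which other cells also express, were left out, and the 10 proximal markers stood at 0.304 to 0.489 times their level in non-endothelial nuclei. By library, the proximal markers summed to 17.9 to 37.4 and the distal markers to 24.5 to 39.8 of 10000 UMIs. The markers of stroma summed to 0.378 to 0.953 and those of leukocytes to 0.584 to 1.39. Levels were compared with those in other nuclei without a test, because the rule selected members by expression.

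The genes that chose the members were high in them by construction. Kdr had a median of 2 UMIs per member, Cyyr1 was found in 93.7% of members, Btnl9 in 54.2% and Esm1, a secreted proteoglycan of VEGF-stimulated endothelium, in 50.6%. Genes that the rule did not read fitted the label of a fenestrated capillary. Plvap was at 6.37 UMIs per 10000 with a UMI in 74.9% of members, against 0.0927 per 10000 in non-endothelial nuclei. Igfbp3, a binding protein of insulin-like growth factors, was at 5.99 against 0.649, and the angiopoietin receptor Tek at 9.68 against 0.101. Gpihbp1, which holds lipoprotein lipase on capillary walls, was at 1.54 against 0.00991. Cd36, a fatty acid carrier also made by tubule cells, was at 2.30 against 1.56 and so did not set the members apart. Of genes that mark other endothelia, the arterial connexin Gja5 was at 0.0369, the urea transporter Slc14a1 of the descending vasa recta at 0.0848, and the lymphatic receptor Lyve1 had no UMI. Other genes of these lists were present, with Tll1 and Gas6 of the venous list at 4.07 and 2.26, Mapt and Plat of the glomerular list at 1.29 and 0.858, and Flt4 and Prox1 of the lymphatic list at 1.19 and 0.22. By library, the 12 genes of the venous list, which holds Plvap, summed to 14.4 to 18.4 of 10000 UMIs, the 15 arterial and descending vasa recta genes to 6.15 to 7.14, the 8 glomerular genes to 2.69 to 3.88 and the 6 lymphatic genes to 1.22 to 2.07. Endothelial nuclei with 2 or more UMIs on Ehd3, a gene used to mark glomerular capillaries, and at most 1 on Nlgn1, Sema3d and Igf1 numbered 906 and resembled the members. Plvap was at 6.37 and Igfbp3 at 6.82 in them, and Gata5 and Sost, which are made by glomerular endothelium, were at 0.0188 and 0.0219, so these nuclei are called Ehd3-positive here and not glomerular. The 3431 endothelial nuclei with 0 UMIs on Ehd3 and 2 or more on Nlgn1, Sema3d and Igf1, called venous-like, had Plvap at 9.08 but Igfbp3 at 1.07 and Gpihbp1 at 0.234.

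Outside the genes of the rule, mRNAs with at least 20 counts in the members of every library were ranked. The ranking used the fold in members over all other endothelial nuclei, in the library where that fold was lowest. The highest 10 were Gzmk, Npr3, Gpihbp1, Prdm1, Cyp26b1, Efnb2, Sipa1l2, Lrrc3b, Kitl and Igfbp5. Folds over Ehd3-positive nuclei alone are not given here. The fold of Npr3, the clearance receptor of natriuretic peptides, was between 2.51 and 3.64 over the 8 libraries. That of Cyp26b1, an enzyme that breaks down retinoic acid, was 2.23 to 3.08, and that of Efnb2, the membrane ligand ephrin-B2, was 2.18 to 2.87. Gzmk, known as a protease of cytotoxic lymphocytes, was at 2.67 to 4.78 fold over other endothelial nuclei. The leukocyte marker Ptprc, set against another group, was at 0.179 UMIs per 10000 in members and 0.378 in non-endothelial nuclei. The part of leukocyte RNA in the counts of Gzmk was not tested. The cut of the rule did not fall at a step in expression. The 565 members with exactly 2 UMIs on Esm1, Btnl9 and Cyyr1 had Plvap at 7.12, Igfbp3 at 5.14 and Npr3 at 2.65 UMIs per 10000, and the 532 nuclei with exactly 1 such UMI that met every other condition had 6.56, 4.97 and 2.12. Within members, Igfbp3 was seen in 67.7% of nuclei with a UMI on Gpihbp1 and in 50.8% of those without, and the median depth of these nuclei was 2394 and 2191 UMIs.

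The share of members did not differ detectably between times or genotypes. Of the nuclei that passed the filter, members were 4.04% and 5.36% in Ctrl ZT4, 3.52% and 5.02% in cKOt ZT4, 4.65% and 4.78% in Ctrl ZT16, and 4.84% and 5.28% in cKOt ZT16. The range of Ctrl ZT4 spanned both groups of ZT16, that of cKOt ZT4 overlapped both, and the lowest shares came from the replicate 1 libraries of ZT4. The mean was 4.88% ± 0.273 (SD, n = 4) at ZT16 and 4.49% ± 0.854 (SD, n = 4) at ZT4 (exact two-sided permutation test, p = 0.429, adjusted over 4 tests 0.857). It was 4.66% ± 0.784 (SD, n = 4) in cKOt and 4.71% ± 0.542 (SD, n = 4) in Ctrl (exact two-sided permutation test, p = 0.914). Of the endothelial nuclei, members were 24.6% ± 2.19 (SD, n = 4) at ZT16 and 22.6% ± 2.24 (SD, n = 4) at ZT4 (exact two-sided permutation test, p = 0.171, adjusted over 4 tests 0.686). After each nucleus was thinned to 1500 UMIs this last difference was 4.51 percentage points (exact p = 0.0857), where 4 against 4 libraries allow no p below 0.0286. In such shares fewer cells of a type and fewer recovered nuclei cannot be told apart. The share also depends on the counts of the rule's own genes. Of these, Cyyr1 was 0.55 higher at ZT16 on the log2 scale in members. This value is a description, because the rule selected members by their Cyyr1 counts. A change in the number of these cells and a change in their Cyyr1 cannot be told apart by the share.

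Time of day changed the transcripts of these nuclei in both directions. In the mean of both genotypes, 200 of the 11810 mRNAs tested passed an adjusted p of 0.05 in edgeR's quasi-likelihood test on counts summed per library (1.69%), of which 81 were higher (0.686%) and 119 lower (1.01%) at ZT16. DESeq2 called 137. In Ctrl mice alone, 62 of 11415 mRNAs were called (0.543%), 20 higher (0.175%) and 42 lower (0.368%). In cKOt mice alone 6 of 11480 were (0.0523%), 1 higher (0.00871%) and 5 lower (0.0436%). The test of the difference between these time changes called 0 of 11810 mRNAs with edgeR and 0 with DESeq2, and 472 had an unadjusted p under 0.05, so a difference between the genotypes in their response to time was not shown. The 200 genes include Cyyr1, which the rule read and whose values are therefore a description. Each count refers to sums of nuclei from 2 mice a group. Without a single library the count was 77 (Ctrl ZT4 replicate 1), 104 (cKOt ZT4 replicate 2), 55 and 61 (Ctrl ZT16 replicates 1 and 2) and 54 and 101 (cKOt ZT16 replicates 1 and 2), and it was 158 or 210 without either of the other 2 libraries.

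Clock genes changed with time in both directions in these nuclei, with Nr1d1, Nr1d2 and Dbp lower and Per2, Cry1, Arntl and Npas2 higher at ZT16 in the mean of both genotypes. In cKOt mice alone Nr1d1 and Nr1d2 were the clock genes that passed. Nr1d1, which encodes the repressor REV-ERB-alpha, had 38.5 and 48.4 CPM (counts per 1000000 mRNA counts, TMM-scaled) in Ctrl ZT4 and 31.9 and 44.1 in cKOt ZT4, against 3.002 and 1.81 in Ctrl ZT16 and 0.738 and 0.782 in cKOt ZT16. Every ZT4 library lay above every ZT16 library. The log2 change was -4.80 ± 0.35 (SE, adjusted p = 7.15e-07), the largest among the clock genes described here. Its paralog Nr1d2 had 132.9 to 192.4 CPM in the 4 ZT4 libraries and 32.5 to 68.0 in the 4 ZT16 libraries, a log2 change of -1.85 ± 0.16 (adjusted p = 3.07e-06). Dbp, a transcription factor that is a direct output of the clock, had 30.8 and 32.2 CPM in Ctrl ZT4 and 7.09 and 29.6 in cKOt ZT4, and 2.21 to 5.47 in the ZT16 libraries. Its groups did not overlap either, although cKOt ZT4 replicate 1 lay close to the ZT16 libraries (log2 -2.63 ± 0.41, adjusted p = 0.00259).

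Per2, a repressor that peaks around the start of the night in many tissues, had 20.5 and 14.7 CPM in Ctrl ZT4, 39.0 and 27.3 in cKOt ZT4, 60.1 and 61.7 in Ctrl ZT16, and 86.3 and 37.5 in cKOt ZT16 (log2 1.38 ± 0.25, adjusted p = 0.00952). The cKOt libraries of the 2 times overlapped, and Per2 stood in members at 0.464 times its non-endothelial level, within the range of the proximal tubule markers. Cry1 rose by 1.04 ± 0.23 on the log2 scale (adjusted p = 0.0237), a call kept under 9 of 18 other settings. Clock itself, Cry2, Per1 and Hlf did not pass the test, with log2 changes of 0.22 ± 0.12, 0.08 ± 0.23, -0.33 ± 0.43 and -0.32 ± 0.18, and Rorb had too few counts to be tested. Nfil3, a repressor of the same target genes as Dbp, was at 0 to 11.8 CPM at ZT4 and 8.26 to 15.5 at ZT16 with overlapping times (log2 1.26 ± 0.44, adjusted p = 0.211). Tef and Rora were lower in all 4 ZT16 libraries than in all 4 ZT4 libraries without passing it (log2 -0.51 ± 0.14, adjusted p = 0.0668, and -0.37 ± 0.11, adjusted p = 0.111). Over all mRNAs tested the median log2 change was 0.01.

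**Figure D1:**
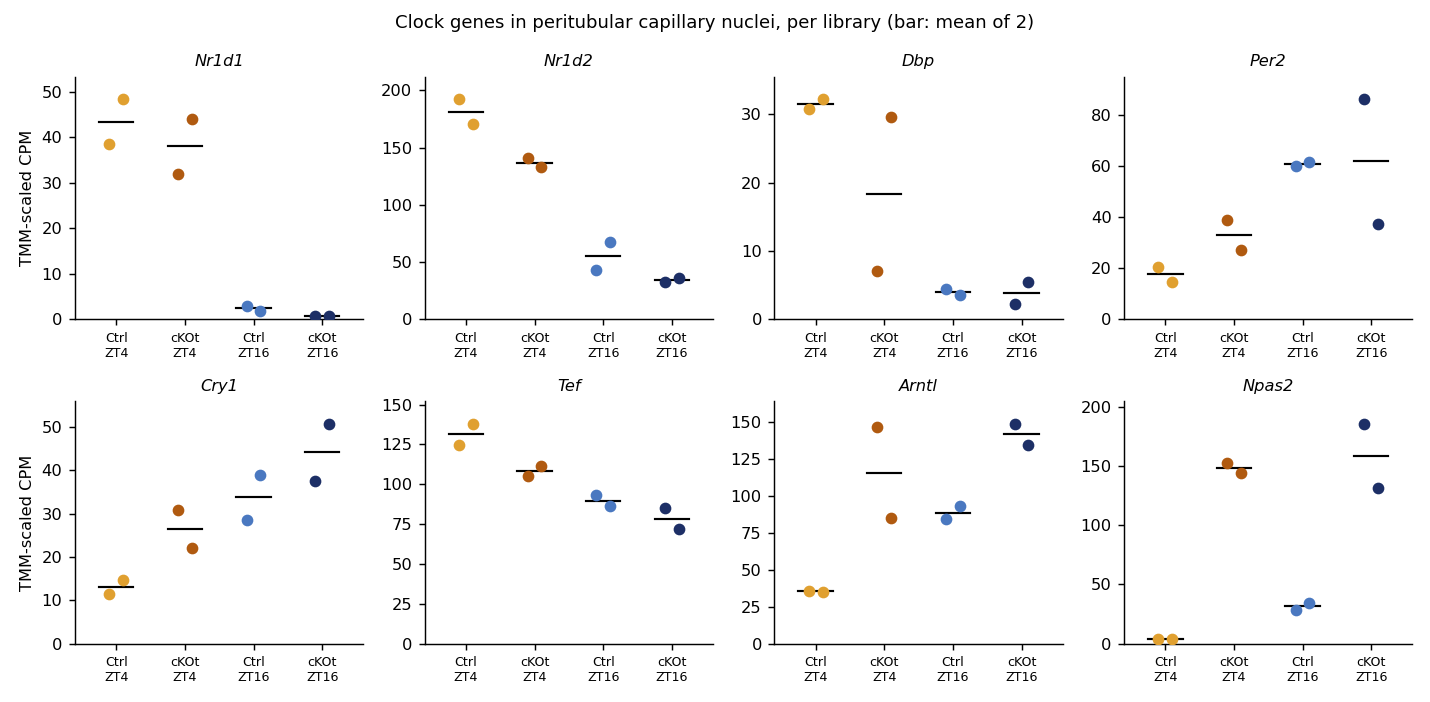
TMM-scaled CPM (y axes, linear from 0) of 8 clock genes in the members of each library (points), by genotype and time (x axes), with the mean of the 2 libraries as a bar. Nr1d1 lies between 31.9 and 48.4 in the ZT4 libraries and at or below 3.002 in the ZT16 libraries, while Npas2 and Arntl are lowest in Ctrl ZT4.

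Arntl is the gene deleted in the tubules of cKOt mice. The counts are 3′ tags summed over the whole gene, so they do not check the deletion. In members Arntl had 35.9 and 35.1 CPM in Ctrl ZT4, 146.6 and 85.1 in cKOt ZT4, 84.1 and 93.4 in Ctrl ZT16, and 149.0 and 134.5 in cKOt ZT16. Ctrl ZT4 was the low group and the other 3 lay closer together. Arntl was 1.68 ± 0.26 higher on the log2 scale in cKOt than in Ctrl at ZT4 (adjusted p = 0.00993) and 0.68 ± 0.22 higher at ZT16 (adjusted p = 0.50). Without the Scrublet doublets the difference at ZT4 was 0.63 and no longer passed, nor did it in members low in tubule RNA (1.48) or without Ctrl ZT4 replicate 1 (1.70), Ctrl ZT4 replicate 2 (1.66) or cKOt ZT4 replicate 1 (1.28). Npas2, the paralog of Clock, had 3.85 and 4.21 CPM in Ctrl ZT4, 152.5 and 144.3 in cKOt ZT4, 28.5 and 34.5 in Ctrl ZT16 and 185.9 and 131.3 in cKOt ZT16. Its log2 change with time was 2.91 ± 0.40 in Ctrl (adjusted p = 0.00204) and 0.10 ± 0.20 in cKOt (adjusted p = 0.971), and the test of the difference between these did not pass (adjusted p = 0.099). The log2 difference between genotypes was 5.15 ± 0.33 at ZT4 (adjusted p = 8.80e-08) and 2.34 ± 0.23 at ZT16 (adjusted p = 4.03e-05). The same libraries differed in the same direction outside the endothelium, where Npas2 was 3.95 ± 0.17 and Arntl 2.96 ± 0.18 higher in cKOt at ZT4. Npas2 and Arntl stood in members at 0.297 and 0.499 times their non-endothelial level, beside 0.304 to 0.489 for the proximal tubule markers, and the part of tubule RNA in their differences between genotypes and times was not tested. Nr1d1, by contrast, stood at 2.59 times its non-endothelial level and Nr1d2 at 1.47. In non-endothelial nuclei Nr1d1 at ZT4 was -2.08 ± 0.29 on the log2 scale in cKOt against Ctrl, whereas in members the difference was -0.19 ± 0.29 (adjusted p = 0.982).

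Beside the clock genes, the smallest adjusted p for time were those of Ccdc3, Ednrb, Egln3, Adam19 and Pde7b, all lower at ZT16. Ccdc3, a secreted protein of endothelium and fat, had 170.6 and 91.1 CPM in Ctrl ZT4, 96.9 and 120.0 in cKOt ZT4, 13.5 and 22.7 in Ctrl ZT16, and 19.9 and 14.1 in cKOt ZT16. No ZT16 library reached the lowest ZT4 library. The log2 change was -2.75 ± 0.23 (adjusted p = 3.07e-06), and it passed the test in Ctrl mice (-2.84 ± 0.33) and in cKOt mice (-2.67 ± 0.33) alone. In non-endothelial nuclei the log2 change of Ccdc3 was -0.04. Egln3, a prolyl hydroxylase that marks hypoxia-inducible factors for breakdown, had 138.3 to 167.5 CPM at ZT4 and 50.3 to 68.0 at ZT16 (log2 -1.41 ± 0.15, adjusted p = 3.93e-05).

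Ednrb, the endothelin receptor that on endothelium clears endothelin and triggers the release of nitric oxide, had 569.5 and 384.8 CPM in Ctrl ZT4, 501.3 and 426.9 in cKOt ZT4, 126.1 and 175.0 in Ctrl ZT16, and 158.6 and 204.0 in cKOt ZT16. Both genotypes fell, and no groups of different times overlapped. The log2 change was -1.66 ± 0.21 in Ctrl (adjusted p = 0.00101) and -1.35 ± 0.21 in cKOt (adjusted p = 0.0121). Of the 18 tested genes of the vasomotor list, chosen with earlier results known, Ednrb passed the test in the mean of both genotypes, beside 1.69% of all mRNAs, and the median log2 change of that list was 0.21. Pde7b, a phosphodiesterase that breaks down cyclic AMP, had 936.3 to 1407 CPM at ZT4 and 498.6 to 623.7 at ZT16 (log2 -0.96 ± 0.12, adjusted p = 0.00042).

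The time changes of Ednrb and Pde7b were set against those in other endothelial nuclei of the same libraries in 1 model, with the library as a block. On untrimmed CPM of mRNA UMIs, Ednrb in venous-like nuclei was at 423.6, 482.3, 444.6 and 448.6 in the 4 ZT4 libraries and at 483.1, 477.7, 421.2 and 435.9 in the 4 ZT16 libraries. The 2 times overlapped there, while the members went from 381.9 to 559.2 at ZT4 to 129.0 to 202.2 at ZT16. The change in members minus that in venous-like nuclei was -1.51 ± 0.16 on the log2 scale for Ednrb (adjusted p = 0.000171) and -0.75 ± 0.11 for Pde7b (adjusted p = 0.00961), and no other gene of 12220 passed (0.0164%). Unlike Ednrb, Pde7b also fell in venous-like nuclei, from 1074 to 1218 CPM at ZT4 to 942.6 to 1056 at ZT16, so its difference is one of size. Against Ehd3-positive nuclei, 1 gene of 11809 passed (0.00847%), and it was not an endothelial gene. Ednrb in Ehd3-positive nuclei was at 379.9 to 575.5 at ZT4 and 135.0 to 228.9 at ZT16, close to the members. Slc12a3, the sodium chloride cotransporter of the distal convoluted tubule, was the gene that passed, with a difference of -1.47 and 0.229 times its non-endothelial level in members. Against Ehd3-positive nuclei the count was between 0 and 3 when single libraries were left out, with 0 without cKOt ZT4 replicate 1 or Ctrl ZT16 replicate 2 and 3 without Ctrl ZT4 replicate 2, and it was 0 when at least 20 counts were asked for. Ccdc3, which was at 3.39 to 24.4 CPM in venous-like nuclei, fell in Ehd3-positive nuclei from 45.9 to 180.9 at ZT4 to 12.7 to 32.0 at ZT16.

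**Figure D2:**
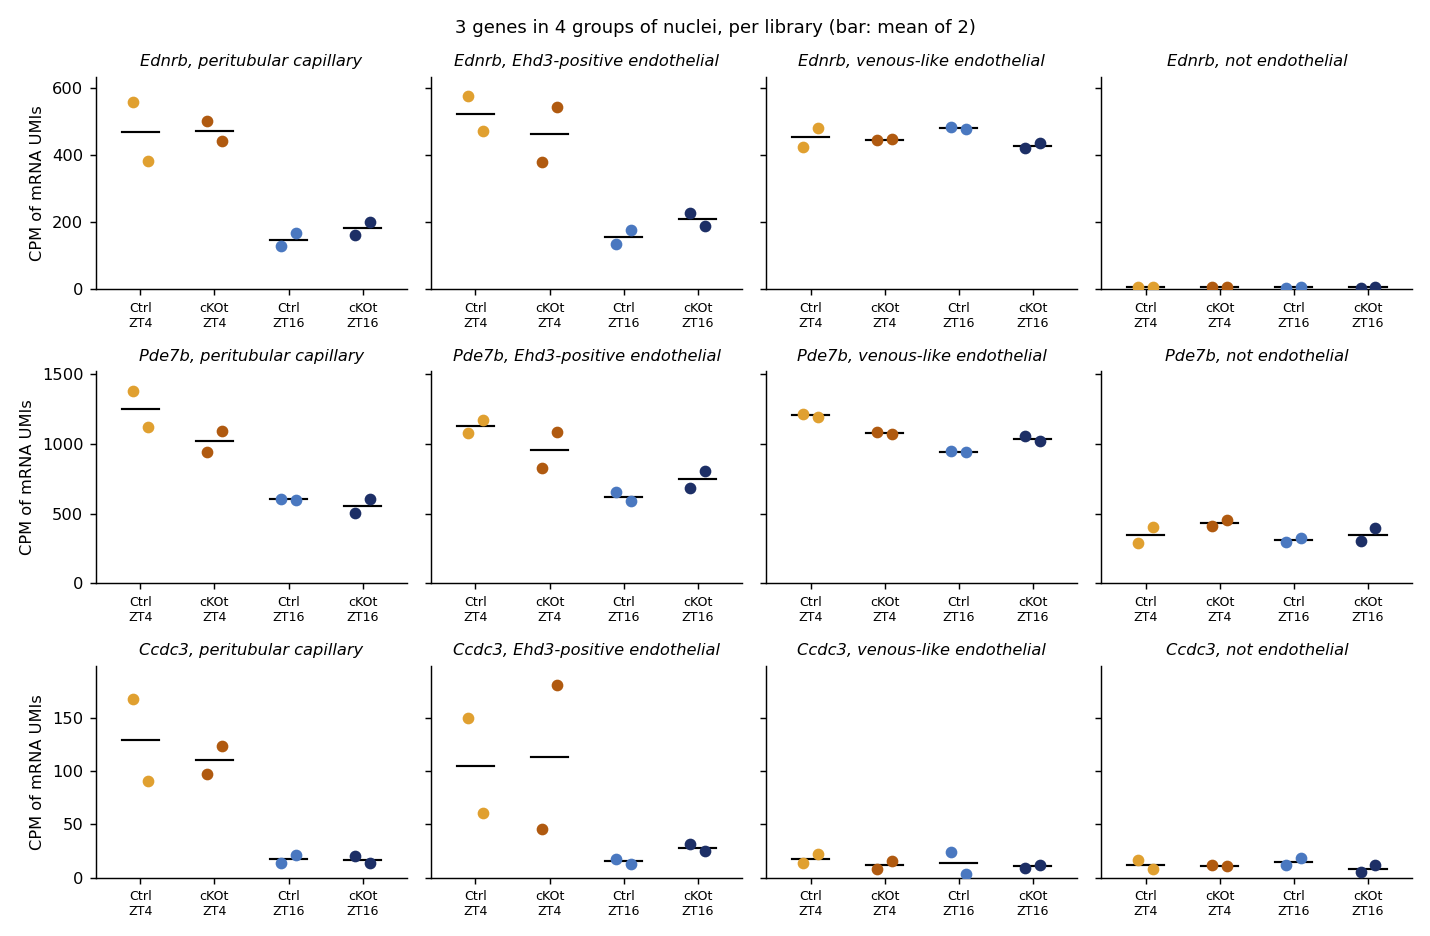
CPM of mRNA UMIs (y axes, linear from 0, shared within a row) of Ednrb, Pde7b and Ccdc3 in 4 groups of nuclei, with 1 point for each library and the mean of 2 as a bar, by genotype and time (x axes). Ednrb falls at ZT16 in peritubular capillary and Ehd3-positive nuclei and stays between 421.2 and 483.1 in venous-like nuclei.

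Among the genes that rose at ZT16 were chaperones of the endoplasmic reticulum. The list of 20 such genes was drawn up after some of their values had been seen, and 7 of the 19 tested passed, all of them higher at ZT16, with 12 more above 0 and none below, beside 0.686% of all mRNAs tested that were higher. Since the list was chosen after values were seen, its count is a description. Hspa5, the chaperone BiP, had 82.1 and 86.2 CPM in Ctrl ZT4, 86.3 and 79.0 in cKOt ZT4, 226.7 and 166.8 in Ctrl ZT16, and 200.6 and 136.0 in cKOt ZT16. The 4 ZT4 libraries were close to each other and below all ZT16 libraries (log2 1.13 ± 0.15, adjusted p = 0.000874). Hsp90b1, the chaperone GRP94, had 141.1 to 166.1 CPM at ZT4 and 257.2 to 300.1 at ZT16 (log2 0.88 ± 0.11, adjusted p = 0.000623). Calr, a lectin chaperone that binds calcium, had 73.1 to 97.4 CPM at ZT4 and 134.5 to 177.1 at ZT16 (log2 0.92 ± 0.14, adjusted p = 0.00166). Pdia6, Herpud1, Pdia3 and Dnajc3 passed with log2 changes of 0.74, 0.61, 0.53 and 0.54, and the last 3 had adjusted p between 0.0423 and 0.0447 and passed under 6, 6 and 4 of 18 other settings. In non-endothelial nuclei Hspa5 changed by 1.45, Hsp90b1 by 1.24, Calr by 1.03 and Pdia6 by 1.15 on the log2 scale, and Pdia3, Dnajc3 and Herpud1 by 0.84, 0.69 and 0.45. Of the 13 genes of the heat and cold list, 3 passed (Hspa5, Hspa8 and Cirbp), beside 1.69% of all mRNAs, with a median log2 change of 0.33 in the mean, 0.73 in Ctrl and -0.13 in cKOt. In cKOt mice alone, where 0.0523% of all mRNAs were called, 6 of the 13 were above 0 and 0 passed, and 0 of the 13 passed the test of the difference between genotypes. In the cytosol, the chaperone Hspa8 rose by 1.05 ± 0.16 (adjusted p = 0.00224) and the small heat shock protein Hspb1 by 0.91 ± 0.18 (adjusted p = 0.0151) in the mean of both genotypes, where the change of Hspb1 was 1.61 ± 0.26 in Ctrl and 0.22 ± 0.25 in cKOt. Cirbp, an RNA-binding protein induced by cold, fell by 0.94 (adjusted p = 0.0245).

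The promoters of 5 of these chaperone genes share a sequence that is shown here because it is rare. It is the ER stress response element, spelled CCAAT and CCACG with 9 bases of any kind between them, which is bound by NF-Y and ATF6. Windows of 250 bases before to 50 bases after the start of each gene were taken from RefSeq (GRCm38.p6) and searched on both strands. The element was in 39 of 32851 windows (0.119%) and in 16 of the 9413 tested genes with a window (0.170%). It was in 5 of the 60 genes higher at ZT16 that had a window (8.33%) and in 0 of the 96 that were lower. The other tested genes with the element, Canx, Creld2, Syvn1 and Alg12 among them, were called in neither direction. These chaperones were listed after values had been seen, so the share among the higher genes is a description and not a test. The 5 genes are Hspa5 (chr2:34771840-34772139, plus strand), Hsp90b1 (chr10:86705395-86705694, minus strand), Calr (chr8:84846882-84847181, minus strand), Pdia6 (chr12:17266339-17266638, plus strand) and Dnajc3 (chr14:118937682-118937981, plus strand). Each is printed 5′ to 3′ in the direction of its gene, with the element in capitals, and Hsp90b1 holds 2 of them on opposite strands.
Hspa5: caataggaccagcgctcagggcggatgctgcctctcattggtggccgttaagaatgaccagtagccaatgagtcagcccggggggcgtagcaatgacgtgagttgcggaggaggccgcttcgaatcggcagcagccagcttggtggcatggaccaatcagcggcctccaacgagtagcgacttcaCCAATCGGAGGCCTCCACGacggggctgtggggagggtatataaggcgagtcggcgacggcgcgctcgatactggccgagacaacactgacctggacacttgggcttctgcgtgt
Hsp90b1: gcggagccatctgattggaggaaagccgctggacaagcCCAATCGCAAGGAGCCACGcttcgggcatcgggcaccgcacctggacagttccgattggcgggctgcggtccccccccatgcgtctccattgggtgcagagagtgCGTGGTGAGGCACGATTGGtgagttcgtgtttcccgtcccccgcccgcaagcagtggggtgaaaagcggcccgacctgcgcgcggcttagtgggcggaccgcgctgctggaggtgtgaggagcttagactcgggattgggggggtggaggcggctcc
Calr: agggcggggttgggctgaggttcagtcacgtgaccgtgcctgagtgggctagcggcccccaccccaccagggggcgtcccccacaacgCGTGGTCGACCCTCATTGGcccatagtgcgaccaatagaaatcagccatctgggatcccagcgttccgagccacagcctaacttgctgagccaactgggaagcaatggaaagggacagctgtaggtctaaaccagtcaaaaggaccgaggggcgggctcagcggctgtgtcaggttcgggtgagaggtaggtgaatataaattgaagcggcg
Pdia6: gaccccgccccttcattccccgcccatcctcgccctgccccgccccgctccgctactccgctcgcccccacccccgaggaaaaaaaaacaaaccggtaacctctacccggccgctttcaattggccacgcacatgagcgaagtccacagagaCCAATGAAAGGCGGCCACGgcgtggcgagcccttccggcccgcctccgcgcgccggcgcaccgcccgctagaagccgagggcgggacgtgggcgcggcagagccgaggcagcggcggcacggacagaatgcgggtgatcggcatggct
Dnajc3: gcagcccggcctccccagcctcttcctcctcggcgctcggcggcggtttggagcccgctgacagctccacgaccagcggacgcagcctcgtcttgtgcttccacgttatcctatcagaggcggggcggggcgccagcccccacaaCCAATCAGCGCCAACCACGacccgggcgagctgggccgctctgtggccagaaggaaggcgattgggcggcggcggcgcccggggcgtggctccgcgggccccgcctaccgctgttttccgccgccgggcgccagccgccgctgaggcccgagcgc
In Calr the match is on the strand opposite to the gene. The first base of the element lay 65 bases before the start in Hspa5, 98 in Pdia6 and 105 in Dnajc3. The E-box CACGTG, which is read by Arntl with Clock or Npas2, was by comparison in 10.0% of the genes higher and 11.5% of the genes lower at ZT16, and in 11.8% of all tested genes with a window. A match is a run of letters and does not show that a factor was bound.

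Of 24 genes of NF-kB and interferon signalling, again listed after values had been seen, 9 passed the test and were lower at ZT16, beside 1.01% of all mRNAs tested that were lower. The other 15 did not pass, and 5 of the 24 lay above 0. Relb, a subunit of NF-kB, had 79.5 and 59.6 CPM in Ctrl ZT4, 47.3 and 44.1 in cKOt ZT4, 25.5 and 20.0 in Ctrl ZT16, and 16.2 and 38.3 in cKOt ZT16. The groups of the 2 times did not overlap (log2 -1.16 ± 0.23, adjusted p = 0.0162). Tnfaip3, which encodes the inhibitor A20, changed by -1.40 ± 0.34, Tnfrsf10b, a death receptor, by -1.25 ± 0.26, and the interferon regulatory factors Irf8 and Irf1 by -1.25 ± 0.28 and -0.65 ± 0.15. Birc3, Nod2, Ifngr2 and Irak2 were the others. The subunits Nfkb1 and Rela and the adhesion molecules Icam1 and Vcam1 did not pass, with log2 changes of -0.17, -0.35, 0.04 and -0.01. The calls of Tnfaip3 and Irak2 were kept under 9 of 18 other settings. In non-endothelial nuclei the changes of Irf1, Nod2 and Ifngr2 were -0.02, 0.05 and -0.02, and those of the other called genes are not given here. The 9 called genes stood in members at 0.828 (Irak2) to 8.05 (Nod2) times their non-endothelial level, with Irf8 at 1.17 and Birc3 at 1.55.

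**Figure D3:**
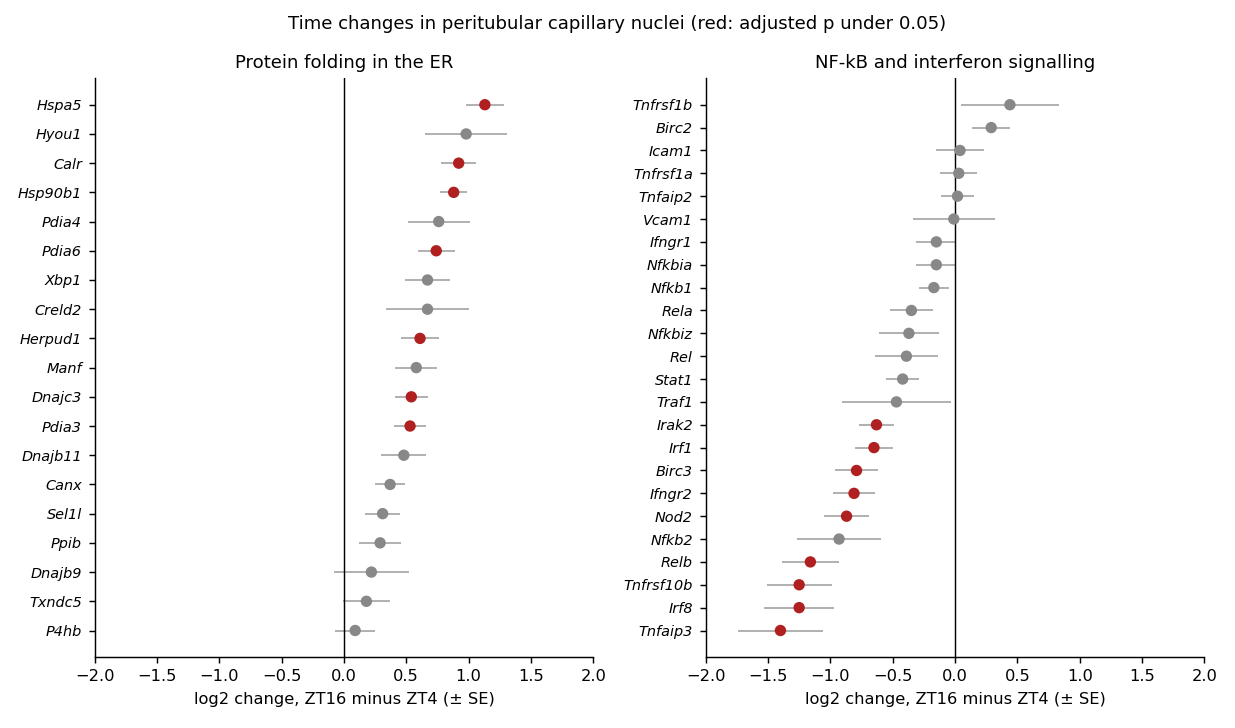
Log2 change from ZT4 to ZT16 in members with its SE (x axes) for each tested gene (y axes) of 2 lists, with red points for an adjusted p under 0.05. All 19 genes of protein folding lie above 0, and the 9 red points of the NF-kB and interferon list lie between -1.40 and -0.63.

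The lists on endothelial function held between 0 and 3 called genes each, beside 1.69% called of all mRNAs tested. Among 14 tested genes of a list meant for endothelia in general, Egfl7, a secreted vessel protein, fell from 689.2 to 886.3 CPM at ZT4 to 534.9 to 565.2 at ZT16 (log2 -0.46 ± 0.11, adjusted p = 0.0386). The tight junction protein Cldn5 of that list, with a UMI in 1.91% of members, changed by -1.80 ± 0.42 at low counts (adjusted p = 0.0335). The junction list of 15 tested genes held Cldn5, Jam3 (-0.63 ± 0.12) and, in the other direction, Jam2 (0.66 ± 0.14). Of 18 tested genes of fenestrae and transport, Igfbp3 had 631.1 to 1033 CPM at ZT4 and 446.6 to 585.7 at ZT16 (log2 -0.62 ± 0.14, adjusted p = 0.0286) and Gpihbp1 changed by -0.82 ± 0.19 (adjusted p = 0.0312) with groups that overlapped. Plvap was at 594.7 to 775.5 at ZT4 and 656.4 to 825.7 at ZT16 and did not pass (log2 0.14 ± 0.12). The 23 tested endothelial transcription factors held Tbx3, a T-box repressor, which had 14.7 to 19.2 CPM at ZT4 and 42.8 to 51.6 at ZT16 (log2 1.41 ± 0.20, adjusted p = 0.00123), and the ETS factor Fli1, which had 1163 to 1612 at ZT4 and 689.6 to 821.4 at ZT16 (log2 -0.74 ± 0.12, adjusted p = 0.00259). The calls of Cldn5 (8 of 17), Egfl7 (8 of 18) and Jam2 (9 of 18) were kept under part of the other settings. In non-endothelial nuclei Tbx3 changed by -0.14 and Fli1 by -0.07.

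Ligands, receptors and genes that respond to them were called in small numbers, again beside 1.69% of all mRNAs. Of 17 tested genes of the VEGF and angiopoietin list, the peptide ligand Apln changed by -1.63 ± 0.38 (adjusted p = 0.0312) with overlapping groups, and Vegfa by 0.79 ± 0.16 (adjusted p = 0.017). Vegfa, a growth factor made by tubule cells and podocytes, stood in members at 0.309 times its non-endothelial level, where it changed by 0.39. The 14 tested Notch genes held no call, and Efnb2 and Notch1, 2 genes with many counts, changed by -0.01 ± 0.11 and 0.20 ± 0.12. Of 17 BMP and TGF-beta genes, the target genes Id1 and Id2 rose by 0.69 ± 0.14 and 0.72 ± 0.15 (adjusted p = 0.017 and 0.0214). The kinase Sgk1, induced by corticosteroids, was the only call among 16 tested glucocorticoid-responsive genes, with 182.1 to 273.2 CPM at ZT4 and 309.8 to 456.0 at ZT16 (log2 0.74 ± 0.12, adjusted p = 0.00342). Of 8 tested immediate early genes, Egr1, Nr4a1 and Ier2 fell by 1.28, 1.92 and 1.05 on the log2 scale (adjusted p = 0.0127, 0.0177 and 0.0422), and Nr4a1 was at 153.9 CPM in Ctrl ZT4 replicate 1 against 28.0 to 59.1 in the other ZT4 libraries. Without that library the ZT4 values of Nr4a1 were still above the 12.0 to 22.1 CPM of the ZT16 libraries. Other genes of the vessel wall that rose were Heg1 (0.60 ± 0.12), a junctional receptor, the stretch-gated channel Piezo2 (0.55 ± 0.11) and Ly6c1 (0.74 ± 0.15), and those that fell were the endothelial repressor Bcl6b (-1.44 ± 0.19), the thrombin receptor F2r (-0.81 ± 0.17) and the basement membrane collagens Col4a1 (-0.46 ± 0.11) and Col4a2 (-0.56 ± 0.11). These were picked for their known roles after their values were seen. The calls of Apln (8 of 17), Ier2 and Col4a1 (8 of 18 each) were kept under a minority of the other settings.

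Some marker genes of other cells and other endothelia were called for time, beside 1.69% of all mRNAs tested. Tbx3, described above, is also on the list of glomerular endothelium (1 of 4 tested, median log2 change 0.33), and Cldn5 on that of arteries and descending vasa recta (1 of 13 tested). Slc12a1, the sodium cotransporter of the thick ascending limb, was 0.52 ± 0.13 higher at ZT16 on the log2 scale (adjusted p = 0.0388) and, in the mean of both genotypes, the only 1 of 19 tested tubule markers to pass, a call kept under 8 of 18 other settings. In Ctrl mice alone the proximal lactate transporter Slc5a12 was called too, with a log2 change of -1.24 ± 0.21 (adjusted p = 0.0109). The tested markers of podocytes (6), stroma (5) and leukocytes (4) held 0 calls in the mean of both genotypes, a number too small to set against that share. The 5 stromal and 4 leukocyte genes tested were all above 0, with medians of 0.52 and 0.56 on the log2 scale at low counts, as for Cd74 with 26.0 to 54.7 CPM at ZT4 and 45.0 to 98.3 at ZT16. Among the 200 genes that changed with time, 30 stood at or below 0.489 times their non-endothelial level, the highest ratio of a proximal marker (15.0%, beside 14.9% of all mRNAs tested). They were 25 of the 81 higher at ZT16 (30.9%) and 5 of the 119 lower (4.20%). The part of tubule RNA in those 30 genes was not tested. Without the Scrublet doublets 252 mRNAs were called, and in the 1907 members at or below the median share of tubule-marker UMIs 207 were, of which 163 and 135 were among the 200.

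Between genotypes, 49 of 11810 mRNAs differed in the mean of both times (0.415%), of which 39 were higher (0.33%) and 10 lower (0.0847%) in cKOt. At ZT4 alone 21 of 11137 passed (0.189%), 19 higher (0.171%) and 2 lower (0.018%) in cKOt. At ZT16 alone 23 of 11603 did (0.198%), 17 higher (0.147%) and 6 lower (0.0517%). Those with the smallest adjusted p included enzymes and transporters known from the proximal tubule. Ddc, which makes dopamine in proximal tubule cells, had 12.8 and 12.6 CPM in Ctrl ZT4, 28.5 and 25.4 in Ctrl ZT16, 72.1 and 70.6 in cKOt ZT4 and 78.9 and 79.0 in cKOt ZT16. The genotypes did not overlap (log2 2.01 ± 0.18, adjusted p = 5.7e-06). Hao2, a peroxisomal oxidase, had 9.81 to 15.4 CPM in Ctrl and 48.5 to 170.4 in cKOt (log2 3.31 ± 0.29), and the amino acid transporter Slc7a12 had at most 2.25 in Ctrl and 11.8 to 66.4 in cKOt (log2 4.78 ± 0.46). Cyp2a4, a steroid hydroxylase, fell from 18.0 to 39.8 CPM in Ctrl to at most 5.90 in cKOt (log2 -3.44 ± 0.40), and the carboxylesterase Ces1d changed by -2.18 ± 0.29. The same genes differed in non-endothelial nuclei, with log2 values of 1.58 for Ddc, 2.83 for Hao2, 3.81 for Slc7a12, -3.03 for Cyp2a4 and -2.32 for Ces1d.

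Of these 49 mRNAs, 35 stood at or below 0.489 times their non-endothelial level (71.4%, beside 14.9% of all mRNAs tested) and 48 at or below its level. The exception was Msr1, a scavenger receptor for modified lipoproteins, at 22.1 times its non-endothelial level. Msr1 had 15.4 and 11.2 CPM in Ctrl ZT4, 13.5 and 9.97 in Ctrl ZT16, 26.0 and 29.6 in cKOt ZT4 and 27.3 and 39.9 in cKOt ZT16. All cKOt libraries lay above all Ctrl libraries (log2 1.30 ± 0.25, adjusted p = 0.0184), and in non-endothelial nuclei the value was -0.22. Without the Scrublet doublets 18 mRNAs were called between genotypes, Msr1 among them, and in the members low in tubule RNA 12 were. Msr1 was not among those 12, with a log2 value of 1.29 (adjusted p = 0.322), and DESeq2 did not call it either (adjusted p = 0.134). In all members, 22 of the mRNAs tested were called between genotypes without Ctrl ZT16 replicate 1 and 23 without cKOt ZT16 replicate 1. Of the 18 and the 12, 16 and 10 were among the 49. Of the tubule markers themselves, Slc5a12 was 0.77 ± 0.14 higher and Umod, a gene of the thick ascending limb, was -0.71 ± 0.13 on the log2 scale in cKOt against Ctrl (adjusted p = 0.0144 for each). The summed proximal markers were 17.9 to 28.7 of 10000 UMIs in Ctrl and 26.3 to 37.4 in cKOt, and 10.7% to 13.9% of members were marked as doublets in cKOt against 8.00% to 10.9% in Ctrl. The lists on endothelial function held 0 genes called between genotypes in the mean of both times, where 0.415% of all mRNAs were called, and their medians were between -0.15 and 0.04 on the log2 scale. At ZT4 alone, Iigp1, an interferon-induced GTPase at 11.9 times its non-endothelial level, had 221.9 and 215.2 CPM in Ctrl and 101.7 and 107.9 in cKOt (log2 -1.06 ± 0.21, adjusted p = 0.04), while at ZT16 it had 99.8 and 118.8 in Ctrl and 96.6 and 150.9 in cKOt. The call of Iigp1 at ZT4 was kept under 7 of 18 other settings, and that of Msr1 under 10 of 18.

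**Figure D4:**
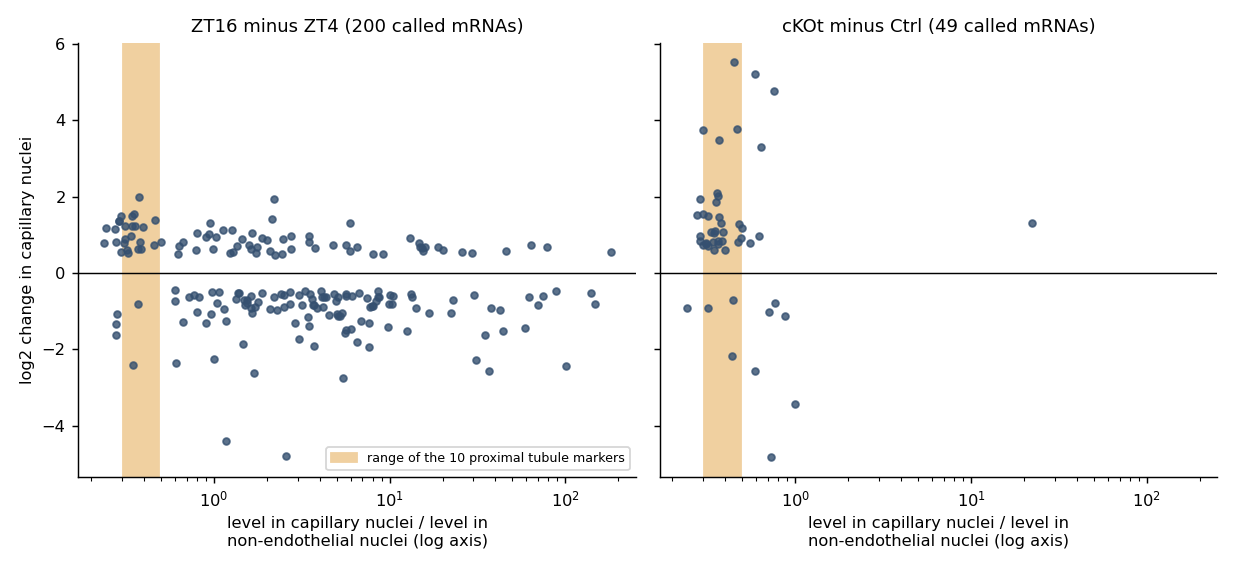
Log2 change (y axes) of each called mRNA (points) against its level in members over that in non-endothelial nuclei (x axes, log scale), for time (left) and genotype (right), with the range of the 10 proximal tubule markers shaded. Points for time spread from 0.237 to 147.4 (Gpihbp1), with Cyyr1, which the rule read, at 180.8. For genotype, 48 of the 49 points lie at or below 1 and Msr1 lies at 22.1.

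Long noncoding RNAs gave few calls. In Ctrl mice alone time changed 1 of 992 (0.101%, lower) and in cKOt mice alone 1 of 1006 (0.0994%, lower), and the genotypes differed in 1 of 915 at ZT4 (0.109%, higher) and 3 of 1067 at ZT16 (0.281%, higher). In the mean of both genotypes 3 of 1150 lncRNAs passed, all lower at ZT16 (0.261%). Gm13387 had 454.9 and 768.2 CPM of lncRNA UMIs in Ctrl ZT4, 685.2 and 691.8 in cKOt ZT4, 214.4 and 174.9 in Ctrl ZT16, and 161.6 and 150.1 in cKOt ZT16. Each ZT16 library was below each ZT4 library (log2 -1.89 ± 0.24, adjusted p = 0.000359). 4930542D17Rik changed by -1.37 ± 0.24 and 1700094M23Rik by -2.05 ± 0.39. All of these stood far above their non-endothelial level, at 93.1, 160.6 and 71.1 times. Between genotypes 8 lncRNAs passed, all higher in cKOt (0.696%), among them Gm33906 (log2 2.62 ± 0.39), Gm13936 (4.55 ± 0.56) and Gm32461 (1.25 ± 0.22), which stood at 0.469, 0.568 and 0.486 times their non-endothelial level. The strand setting of the counting was not given in the sources used here. Whether these lncRNA counts hold reads of antisense partner genes was not tested.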

How the data were processed

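Nuclei of frozen kidneys were sorted by DAPI and read as 3′ libraries (10x Genomics). The authors deposited raw UMI counts per gene and nucleus for 32285 features, and the submitters' processing notes name Cell Ranger 7.1.0, Seurat 5 and GRCm39. The build of the counts is uncertain, since the methods name an mm10 reference. Biotypes came from a GENCODE mouse annotation matched by Ensembl ID, and 611 features had no match and were left out of the tests. Filters and the rule for members are given above. Doublets were scored with Scrublet (scanpy 1.11.5, expected rate 8%) but kept. Counts of members were summed per library, and mRNAs and lncRNAs were tested separately with edgeR 4.0.16 (TMM, quasi-likelihood, 1 model of 4 groups), leaving out genes below 5 counts in either replicate of every compared group, at a Benjamini-Hochberg adjusted p of 0.05. DESeq2 1.42.0, other filters and other sets of nuclei were alternatives. On simulated counts for the time comparison (11802 mRNAs), edgeR recovered 72% of 2-fold and 94% of 4-fold changes, with 6.21% of calls false. For 1146 lncRNAs it recovered 41% and 81%, with 2.4% false. The simulation gave all genes of a biotype the same dispersion (0.0196 for mRNAs, 0.0439 for lncRNAs) and tested time in the mean of both genotypes. Its rates therefore do not cover genes that vary more between libraries, or contrasts within 1 genotype or time. Members, gene lists and tests were chosen with earlier results of these data known. Named genes were the clock genes (1 is not reported here), for each contrast, biotype and direction at most 5 called genes (lowest p, no overlap in CPM), up to 4 per list, the 10 with the highest fold over other endothelium, and genes said to be chosen after their values were seen. The labels name 2 mice a group without stating separate litters, so p-values measure the spread between these libraries.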

Additional observations from a re-analysis of the deposited data

Results flagged for a closer look

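The change from ZT4 to ZT16 differed between nucleus groups for 3 genes, by edgeR's quasi-likelihood test of the difference. For Ednrb the change in members minus that in venous-like nuclei was -1.51 on the log2 scale, and for Pde7b it was -0.75. For Slc12a3, a gene of the distal convoluted tubule, the change in members minus that in Ehd3-positive nuclei was -1.47. Slc12a3 had 511.3, 249.7, 524.9 and 397.8 CPM of mRNA UMIs in the members of the 4 ZT4 libraries and 415.3, 153.2, 167.9 and 168.9 in those of the 4 ZT16 libraries, so the 2 times overlapped. The part of tubule RNA in this difference was not tested.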

How the results depend on the processing

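Counts rest on 2 libraries a group and sums of 365 to 579 nuclei. The counts of called mRNAs that moved by over 1.5 times were as follows. With no filter on low counts they were 240 (time in Ctrl), 122 (time in cKOt), 101 (genotype at ZT4), 123 (genotype at ZT16), 430 (time in the mean), 223 (genotype in the mean), 55 (the interaction). With at least 20 counts they were 10 (time in cKOt). Without Scrublet doublets they were 99 (time in Ctrl), 31 (time in cKOt), 4 (genotype at ZT4), 6 (genotype at ZT16), 18 (genotype in the mean). With equal numbers of nuclei per library they were 10 (time in cKOt), 12 (genotype at ZT4). In nuclei low in tubule RNA they were 94 (time in Ctrl), 10 (time in cKOt), 6 (genotype at ZT4), 2 (genotype at ZT16), 12 (genotype in the mean). Without single libraries the mRNAs called ranged from 9 to 87 (time in Ctrl), from 2 to 12 (time in cKOt), from 8 to 26 (genotype at ZT4), from 2 to 32 (genotype at ZT16), from 54 to 210 (time in the mean), from 22 to 65 (genotype in the mean), from 0 to 4 (the interaction). The counts of called lncRNAs that moved by over 1.5 times were as follows. With DESeq2 they were 2 (time in Ctrl), 4 (genotype in the mean). With RLE size factors they were 2 (time in Ctrl). With no filter on low counts they were 2 (time in Ctrl), 4 (time in cKOt), 6 (genotype at ZT4), 5 (genotype at ZT16), 11 (time in the mean), 16 (genotype in the mean), 3 (the interaction). With at least 20 counts they were 2 (time in Ctrl). With the replicate number as a block they were 2 (genotype at ZT4), 1 (the interaction). With both kinds of RNA in 1 fit they were 3 (time in Ctrl), 5 (time in cKOt), 3 (genotype at ZT4), 12 (time in the mean). Without Scrublet doublets they were 4 (time in Ctrl), 3 (time in cKOt), 0 (genotype at ZT4), 1 (genotype at ZT16), 10 (time in the mean), 2 (genotype in the mean). With equal numbers of nuclei per library they were 2 (genotype at ZT4), 6 (time in the mean). With a marker sum of at least 3 UMIs they were 2 (time in Ctrl), 6 (time in the mean), 4 (genotype in the mean). In nuclei low in tubule RNA they were 5 (time in Ctrl), 6 (time in cKOt), 6 (genotype at ZT4), 1 (genotype at ZT16), 10 (time in the mean), 4 (genotype in the mean). Without single libraries the lncRNAs called ranged from 0 to 2 (time in Ctrl), from 0 to 3 (time in cKOt), from 0 to 5 (genotype at ZT4), from 0 to 6 (genotype at ZT16), from 1 to 8 (time in the mean), from 3 to 13 (genotype in the mean), from 0 to 3 (the interaction). The cause of these shifts was not tested, and leaving out a library also removes samples. In the fits without a library, the lone library of its group was assumed to vary like the other groups.

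With the replicate number as a block, 174 mRNAs were called for time and 50 for genotype in the mean, and beside the lncRNA counts above no count of calls moved by over 1.5 times. The deviations of same-numbered libraries correlated between -0.0951 and 0.107, so the numbers were not taken to pair mice. In the comparison of time changes between nucleus groups, 2 genes were called against venous-like nuclei. Against Ehd3-positive nuclei, where 1 gene was called, the count was 0 with at least 20 counts and 0 to 3 without single libraries, and these alternatives were run for this comparison only. The genotype difference in the share of members among endothelial nuclei was -0.562 percentage points after thinning to 1500 UMIs and lay between -0.129 and 1.99 without single libraries (-0.129 and -0.0358 without cKOt ZT16 replicates 1 and 2). Among all nuclei the genotype difference lay between -0.266 and 0.337 without single libraries (0.174 without Ctrl ZT4 replicate 2 and 0.337 without cKOt ZT4 replicate 1). There it was -0.3105 after thinning and -0.142 without Scrublet doublets. Without single libraries, the ZT16 minus ZT4 difference lay between 0.0776 (without cKOt ZT4 replicate 1) and 0.693 (without Ctrl ZT4 replicate 2) percentage points among all nuclei, with 0.252 without Ctrl ZT4 replicate 1, and between 1.34 and 3.11 among endothelial nuclei for the same libraries. It was 0.709 among all and 4.51 among endothelial nuclei after thinning, and 0.611 and 3.245 with a marker sum of at least 3 UMIs. No called gene named in the text reversed under any setting run. The members with 0 tubule UMIs were not run, since they numbered 13, and nuclei at or below the median tubule share were used after seeing the data, as was the marker sum of at least 3 UMIs for lncRNAs.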
